A study of Mus musculus with 3 samples.

Results

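The 27 genes described here build cholesterol, sense it, or move, store and export it. They were listed by their known roles, and were read through array probes whose transcript name leads to one of these genes in RefSeq. All 27 were measured, of 15393 genes measured in all. The mevalonate and isoprenoid steps are covered by 8 of them, the squalene and sterol steps by 11, the sensing of sterols by 3, and the transport, storage and efflux of cholesterol by 5. Expression was measured once in each of 3 states of cardiac myofibroblasts, the contractile, collagen-producing fibroblasts that appear in the injured heart. All cells came from hearts of male C57BL/6J mice collected 3 days after the left anterior descending artery had been tied off for good, with no transgene or deletion named, and the labels give the age as 8 weeks in one place and as 10 weeks at surgery in another. The hearts were digested with collagenase and elastase, the cells that attached to plastic overnight were kept, and cells carrying the leukocyte protein CD45 were removed on a magnetic column. Adherent cells were grown on plastic, non-adherent cells were taken from plastic into low-attachment plates, and re-adherent cells were returned from suspension to plastic. Each RNA sample was a mixture from several hearts and there was 1 array per state, so no spread between biological replicates and no p-value could be computed. The states were collected one after another, so the state and the time in culture cannot be told apart.

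Cholesterol is made from acetyl-CoA through mevalonate, isoprenoid diphosphates, squalene and lanosterol, and branches of the same route give the prenyl groups of small GTPases, dolichol and ubiquinone. Most of the synthesis genes are targets of SREBP2, a membrane-bound transcription factor that SCAP carries to the Golgi for cleavage when sterols are low and that INSIG proteins hold back in the endoplasmic reticulum when sterols are high. Liver X receptors, which bind oxysterols, switch on the efflux pumps ABCA1 and ABCG1. Synthesis and efflux are known to work in opposite directions on the sterol content of a cell.

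The promoters of the genes are given as a description, since many synthesis genes are known to carry a sterol response element and a nearby CCAAT box. The letters searched for were settled after other spellings had been tried, so the counts are not independent evidence. RefSeq promoters of the mouse build GRCm38.p6, from 250 bases before to 50 bases after the start of transcription, were at hand for 21 of the 27 genes, the others being Fdps, Fdft1, Sqle, Stard4, Npc1 and Abcg1. They were searched on both strands for CCAAT, the box bound by NF-Y, for the sterol response element letters TCACNCCAC, and for a DR4 element written as a repeat of NGGTNA after a spacer of 4 bases, the type that liver X receptors bind. No match of one pattern overlapped a match of another in these genes. CCAAT was present for 15 of 16 synthesis genes, all but Acat2, against 37.4% of all 32851 promoters of this length. The sterol response element letters were present for 1 of 16 synthesis genes, Hmgcs1, against 1.24% of all promoters. The DR4 letters were present for 1 of 2 handling genes, Abca1, against 0.718% of all promoters. A match is a stretch of letters and not a measured binding site. The promoters of 4 genes are printed 5′ to 3′ on the strand of the gene. Hmgcs1 (chr13:119690101-119690400, + strand) is shown as the gene with both the sterol response element letters and CCAAT, here in its reverse form ATTGG. Mvk (chr5:114444019-114444318, + strand) is shown as the synthesis gene that fell furthest in suspension, and Msmo1 (chr8:64733529-64733828, - strand) as one that stayed level. Abca1 (chr4:53159846-53160145, - strand) is shown as the efflux gene that rose in suspension. Capitals mark the matches.
Hmgcs1: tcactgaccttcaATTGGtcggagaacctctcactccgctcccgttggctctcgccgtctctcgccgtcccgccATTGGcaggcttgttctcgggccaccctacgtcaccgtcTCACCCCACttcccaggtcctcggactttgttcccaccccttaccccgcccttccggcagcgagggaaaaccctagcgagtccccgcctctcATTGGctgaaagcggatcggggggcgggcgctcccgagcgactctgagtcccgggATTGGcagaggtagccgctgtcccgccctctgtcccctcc
Mvk: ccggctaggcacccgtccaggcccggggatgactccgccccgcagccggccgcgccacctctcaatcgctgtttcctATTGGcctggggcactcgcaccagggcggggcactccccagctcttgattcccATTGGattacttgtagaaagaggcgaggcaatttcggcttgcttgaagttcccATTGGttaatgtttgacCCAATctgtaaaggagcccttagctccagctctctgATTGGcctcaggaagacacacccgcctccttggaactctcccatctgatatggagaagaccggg
Msmo1: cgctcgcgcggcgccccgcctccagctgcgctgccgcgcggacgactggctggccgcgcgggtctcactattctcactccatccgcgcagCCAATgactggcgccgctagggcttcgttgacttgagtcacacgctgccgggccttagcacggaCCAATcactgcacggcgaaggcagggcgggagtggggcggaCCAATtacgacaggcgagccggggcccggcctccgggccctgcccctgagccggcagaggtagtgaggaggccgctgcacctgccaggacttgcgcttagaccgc
Abca1: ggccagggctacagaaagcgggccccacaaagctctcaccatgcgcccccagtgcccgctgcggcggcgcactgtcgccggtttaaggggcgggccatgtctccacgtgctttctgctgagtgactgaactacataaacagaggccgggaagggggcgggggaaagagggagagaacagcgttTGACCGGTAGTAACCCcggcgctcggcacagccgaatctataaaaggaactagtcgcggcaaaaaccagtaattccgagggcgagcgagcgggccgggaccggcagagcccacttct

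The plot of motif positions shows the same matches for the 21 genes. In Hmgcs1 the sterol response element letters lie at positions -137 to -129, counted from the start of transcription. In Abca1 the DR4 letters lie at positions -67 to -52, on the opposite strand. The CCAAT boxes of most synthesis genes lie before the start and on either strand, and they are present both in genes that fell in suspension and in genes that did not.

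**Figure D1:**
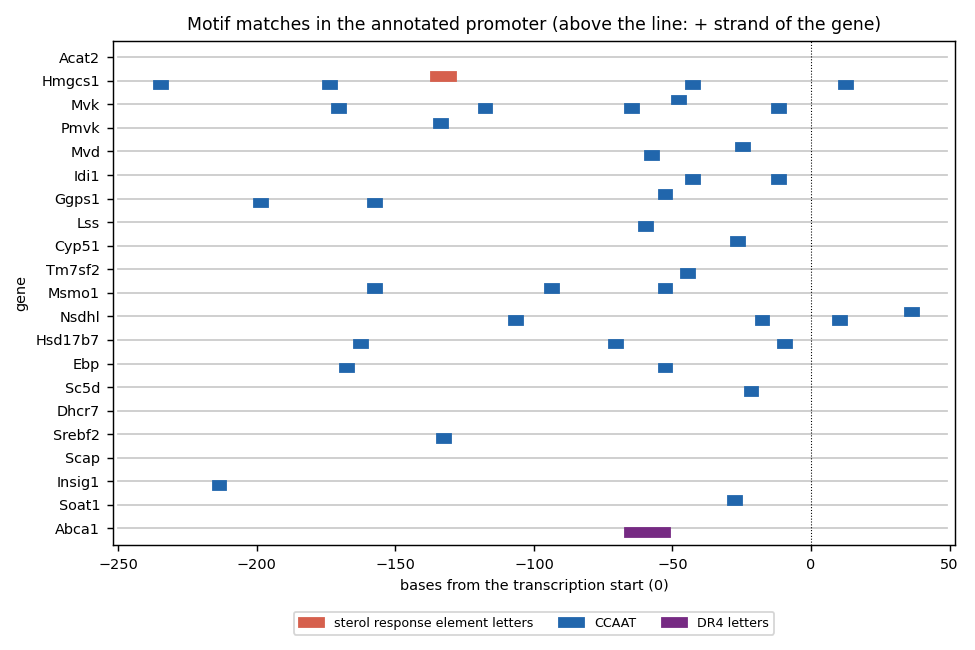
Letter matches in the annotated promoters of 21 genes, with the distance in bases from the start of transcription on the x axis, 1 line per gene, marks above the line for the strand of the gene and below it for the opposite strand. CCAAT marks stand on most synthesis lines, the single sterol response element mark on Hmgcs1 and the single DR4 mark on Abca1; only the first listed start of a gene is drawn, and the CCAAT matches of Dhcr7 lie at another of its starts.

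The arrays were 1-colour Agilent mouse arrays, all on the same slide and scanned together, with 53.9% to 59.9% of the non-control spots well above background. A scaled level is the log2 processed signal minus the 75th percentile of the array, so 0 marks that percentile. Levels of different members are not compared with each other because each probe binds with its own strength. Sums over marker genes, given below, are led by the brightest probes and are no measure of cell content. Every one of the 27 genes gave a signal well above background in each state. The software assigned an error of 0.20 to 0.21 to the log2 difference of every member between arrays, and probes spotted 10 times scattered with an SD of 0.06 to 0.08, which both cover technical error within arrays only. A gene is said to rise or fall only where the difference passed 2-fold, a log2 difference of 1. Where 3 levels are given, they stand for the adherent, the non-adherent and the re-adherent array, in that sequence.

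On leaving plastic for suspension, synthesis genes were lower on balance and only a few of them moved far, whereas the genes that export and store cholesterol rose several-fold. Of the 19 synthesis genes, 13 were lower and 6 higher in non-adherent than in adherent cells, where 46.8% of all genes were higher. Of the 19, 3 lay within their error, Hmgcs1 and Msmo1 among the lower and Lss among the higher. The probes of Fdft1, counted as lower, disagreed. The median log2 difference was -0.34 beside -0.07 for all genes. Mvk, Hsd17b7 and Sc5d fell past 2-fold, 3 of 19 genes, where 14.7% of all genes fell as far, so this share is near the background. Tm7sf2 rose, 1 of 19 genes, where 17.2% of all genes rose as far. Of the 5 handling genes, Npc1, Soat1, Abca1 and Abcg1 rose, with a list median of 2.26. Members share the same 3 RNA samples and are not replicates of a state. In bulk RNA of this kind, fewer cells of a type and less RNA per cell cannot be told apart.

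**Figure D2:**
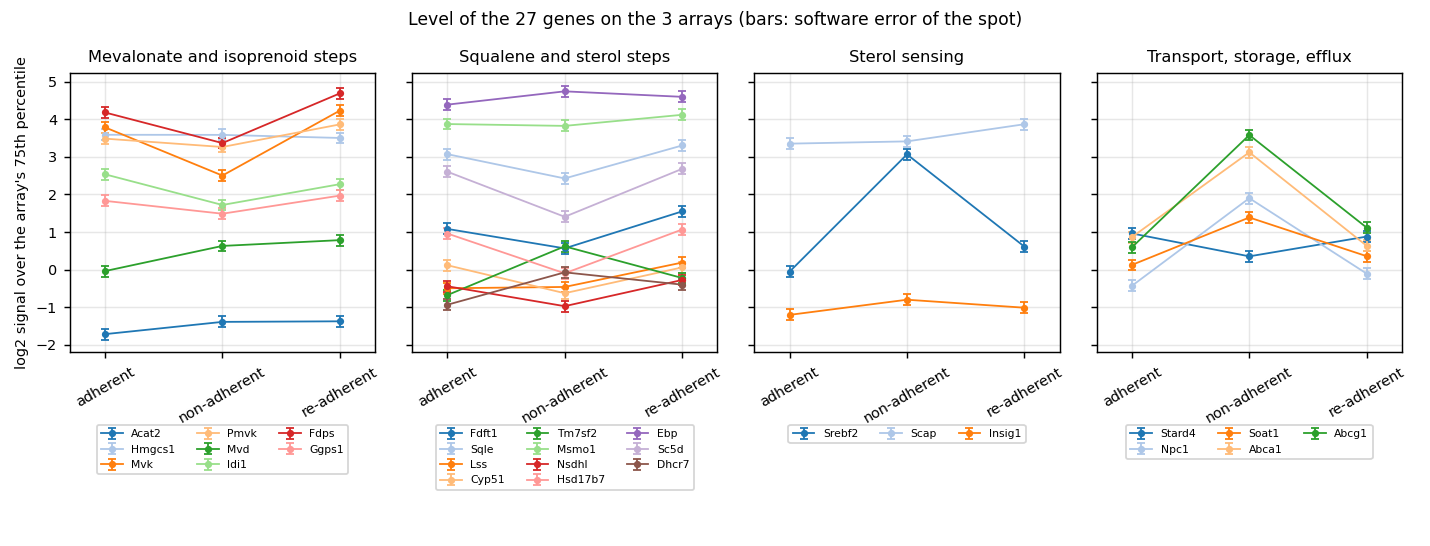
Scaled level (log2 signal over the 75th percentile of the array, y axis) of the 27 genes of adherent, non-adherent and then re-adherent cells, in 4 panels by role, with the software error of each spot as a bar. Synthesis lines differ in direction on the non-adherent array and mostly stay within 2-fold, whereas Npc1, Soat1, Abca1, Abcg1 and the brighter probe of Srebf2 peak there and return.

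Among the mevalonate genes, Mvk, Idi1 and Fdps were lowered the most in suspension, and Ggps1 and Pmvk were only slightly lower. The entry enzymes Acat2 and Hmgcs1 and the decarboxylase Mvd were not lower past their error. Acat2, the cytosolic thiolase that joins acetyl-CoA units, had scaled levels of -1.72, -1.39 and -1.38. Hmgcs1, which makes HMG-CoA, had levels of 3.59, 3.59 and 3.50. Neither gene moved past 2-fold, and the Hmgcs1 difference in suspension of -0.00 ± 0.20 lay within its error and changed sign with the scaling. Mvk, the kinase that phosphorylates mevalonate, had levels of 3.79, 2.50 and 4.23. The non-adherent array was the lowest of the 3 by a wide margin, with a fall of -1.28 ± 0.20 on the log2 scale, or 2.44-fold. A further probe of Mvk, far dimmer, gave -1.26 ± 0.20. Pmvk, the next kinase, had levels of 3.49, 3.26 and 3.86, and its difference in suspension was -0.22 ± 0.20. That value was near the background, since 42.2% of all genes lay below it, and it was -0.12 with the authors' values. Mvd, the decarboxylase that yields isopentenyl diphosphate, had levels of -0.04, 0.63 and 0.78, so its non-adherent array was higher than the adherent one, by 0.67 ± 0.20. The spots around the Mvd probe were themselves shifted by 0.33 between these arrays, the largest such shift beside any member, and its part in the value was not tested.

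Idi1, Fdps and Ggps1 handle the isoprenoid units that feed both sterols and protein prenylation. Idi1, the isomerase of isopentenyl diphosphate, had levels of 2.54, 1.72 and 2.27. Fdps, which builds farnesyl diphosphate, had levels of 4.18, 3.37 and 4.69. Both were lowest in suspension, with log2 differences of -0.82 ± 0.20 and -0.81 ± 0.20 that lie within 2-fold. Ggps1, which makes geranylgeranyl diphosphate, had levels of 1.83, 1.49 and 1.97 and a difference of -0.34 ± 0.20. Its further probe gave -0.64 ± 0.20 in the same direction.

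The squalene and sterol genes had a median difference of -0.52 in suspension, with 7 of 11 lower, by the brightest probe of each gene. The middle gene was Fdft1 itself, so both values rest on a gene whose probes disagree. With the dimmer Fdft1 probe the middle gene would be Msmo1, at -0.05 and within its error. Fdft1, the squalene synthase that commits farnesyl units to sterols, had levels of 1.08, 0.56 and 1.55 by its brighter probe, a difference of -0.52 ± 0.20. Its dimmer probe read -4.38, -2.66 and -3.75, the opposite direction, with 1.71 ± 0.29. The direction of Fdft1 in suspension is therefore not settled by these arrays. Sqle, the squalene epoxidase, had levels of 3.07, 2.43 and 3.30, with a difference of -0.65 ± 0.20. Lss, which closes the rings to lanosterol, had levels of -0.50, -0.46 and 0.19. Its difference in suspension of 0.03 ± 0.20 lay within the error and changed sign with the scaling. Cyp51, the lanosterol demethylase, had levels of 0.12, -0.63 and 0.06 and was lower in suspension by -0.75 ± 0.20.

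The enzymes that work on the sterol rings split into genes that fell, genes that stayed level and genes that were higher. Hsd17b7, a reductase that follows C4 demethylation, had levels of 0.96, -0.10 and 1.07. It fell by 1.06 ± 0.20 on the log2 scale, or 2.08-fold, and its further probe gave -1.11 ± 0.20. With another background correction the difference of Hsd17b7 was -0.92, inside 2-fold. Sc5d, the desaturase near the end of the route, had levels of 2.61, 1.40 and 2.68 and fell by 1.20 ± 0.20. In both genes the non-adherent array stood alone below the other 2. Nsdhl, the dehydrogenase of C4 demethylation, had levels of -0.44, -0.97 and -0.28, with a difference of -0.53 ± 0.20, and a dimmer probe gave -0.14 ± 0.23.

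Msmo1, the oxidase that starts C4 demethylation, had levels of 3.87, 3.82 and 4.12. Its difference in suspension of -0.05 ± 0.20 lay within the error and changed sign with the scaling. Ebp, the sterol isomerase, had levels of 4.39, 4.74 and 4.60 and was higher in suspension by 0.35 ± 0.20. Dhcr7, which completes cholesterol, had levels of -0.94, -0.07 and -0.40, higher in suspension by 0.86 ± 0.20. Tm7sf2, a sterol reductase of the endoplasmic reticulum, had levels of -0.68, 0.62 and -0.22. It was the synthesis gene that went furthest against the rest, with a rise of 1.30 ± 0.20, or 2.46-fold, and its dimmer probe rose by 1.07 ± 0.21.

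The 3 sensing genes gave no shared pattern. Scap, the escort of SREBP2, had levels of 3.35, 3.41 and 3.87, and its difference in suspension of 0.06 ± 0.20 lay within the error and changed sign with the scaling. Insig1, the retention protein that is itself an SREBP target, had levels of -1.21, -0.80 and -1.01, with a difference of 0.40 ± 0.21. Srebf2, the gene of SREBP2, was read by a pair of probes that disagreed. The brighter probe had levels of -0.06, 3.07 and 0.61, a rise in suspension of 3.12 ± 0.20, or 8.70-fold. The other probe had levels of -0.32, -0.76 and -0.05, a difference of -0.44 ± 0.20. The mean of the probes gave 1.34. Since the probes differ in sign, no direction is given for Srebf2 in suspension.

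The plot of genes with several probes sets these cases side by side. Of the 27 genes, 9 had more than 1 probe well above background, and in 7 of the 9 the probes moved the same way in suspension. The exceptions were Fdft1 and Srebf2. The other 18 genes rest on a single probe each, among them Npc1, Soat1, Abca1 and Abcg1, for which no such comparison can be made.

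**Figure D3:**
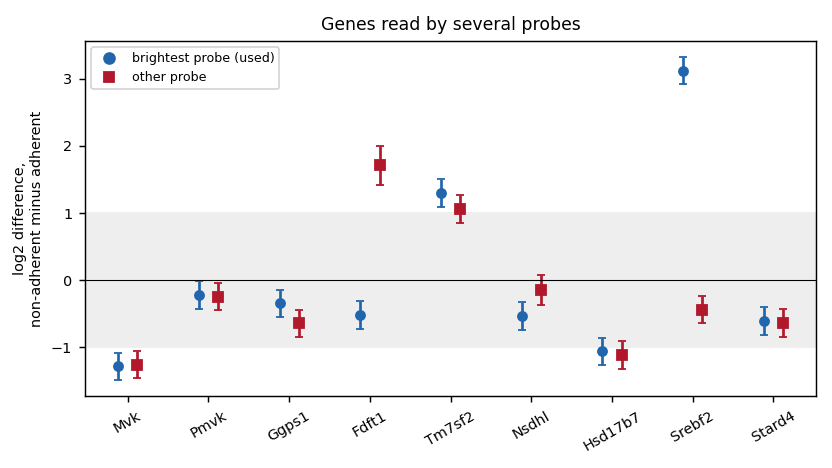
Log2 difference of non-adherent minus adherent (y axis) for the 9 genes read by several probes, with the brightest probe as a circle, the other as a square and the software error as a bar; the grey band is within 2-fold. The symbols lie close together for Mvk, Pmvk, Tm7sf2, Hsd17b7 and Stard4 and lie on opposite sides of 0 for Fdft1 and Srebf2.

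Among the transport, storage and efflux genes, Abcg1, Npc1 and Abca1 had larger differences in suspension than any synthesis gene, whereas those of Soat1 and Stard4 were within the range of the synthesis genes. Abcg1, a pump that hands cholesterol to high-density lipoprotein, had levels of 0.59, 3.58 and 1.12. Its rise in suspension was 2.99 ± 0.20, or 7.94-fold, and 2.57% of all genes rose further. Abca1, the pump that loads apolipoprotein A-I, had levels of 0.86, 3.12 and 0.63 and rose by 2.26 ± 0.20, or 4.78-fold. For both pumps the non-adherent array stood well above the other 2, which were within 2-fold of each other. Npc1, the membrane protein that releases cholesterol from lysosomes, had levels of -0.43, 1.90 and -0.11, a rise of 2.33 ± 0.20, or 5.04-fold. Soat1, which esterifies cholesterol for storage in droplets, had levels of 0.12, 1.39 and 0.36, a rise of 1.26 ± 0.20, or 2.40-fold. Stard4, a soluble sterol carrier that is an SREBP2 target, went the other way, with levels of 0.96, 0.35 and 0.88 and a difference of -0.61 ± 0.20. Its further probe gave -0.64 ± 0.21.

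Macrophages express ABCA1, ABCG1, NPC1 and SOAT1 strongly, and most macrophage markers moved in the same direction as these genes into suspension and on return. Of 18 markers listed, 16 were measured, all well above background on every array, although cells with CD45 had been removed. Into suspension 15 of 16 rose past 2-fold, where 17.2% of all genes did, with a median of 2.80. The exception was Itgam, at -0.84 by its brightest probe, whereas its other probes, both dimmer, rose by 1.63 ± 0.23 and 1.96 ± 0.20. The summed scaled signal of the 16 was 369, 2049 and 634 times the 75th percentile of the array. Ptprc, the gene of CD45, had levels of -0.87, 1.81 and -0.03. On return to plastic 14 of the 16 fell, where 16.3% of all genes did, with a median of -1.66. Cx3cr1 went the other way, with a rise of 1.95. Itgam was at 0.68 by its brightest probe, whereas its dimmer probes gave -1.42 and -1.99. Of the 10 endothelial markers, 7 were well above background on all 3 arrays. In suspension 7 of the 10 rose, where 17.2% of all genes did, with a median of 1.73. The 10 had summed signals of 23.8, 38.9 and 22.3. The brightest probe of Kdr led the adherent and re-adherent sums, with levels of 3.86, 3.51 and 4.25. Egfl7 led the non-adherent sum, with levels of 2.79, 3.93 and 1.17. The median level of the 10 was -1.57, 0.81 and -3.90. On return 9 of the 10 fell, where 16.3% of all genes did. In re-adherent against adherent cells 7 of the 10 were lower past 2-fold, where 4.9% of all genes were, with a median of -1.99. Kdr fell in neither of these by its brightest probe, at 0.74 and 0.39, whereas its dimmer probe gave -3.18 and -1.23. Into suspension the same Kdr probes gave -0.35 and 1.96. Of 9 cardiomyocyte markers 7 were measured, with summed signals of 1.32, 2.12 and 3.42. Tnnt2 was the brightest of them on each array and led the sums, with levels of -0.13, 0.46 and 1.60. The median level of the 7 was -4.16, -3.30 and -4.15. The 11 fibroblast markers were well above background on every array, with a median of -0.55 and summed signals of 1786, 907 and 1480. Acta2 was the brightest on the adherent and re-adherent arrays, with levels of 9.38, 2.75 and 9.32, so the change in the sums leans on it. Col1a2 was the brightest on the non-adherent array, with levels of 9.05, 8.04 and 8.71. The median level of the 11 was 5.96, 3.47 and 4.60. Of the 11 markers 4 fell, where 14.7% of all genes did, with differences of -6.64 in Acta2, -3.50 in Thy1, -1.75 in Tcf21 and -1.01 in Col1a2. The 2 that rose, a share near the 17.2% of all genes, were Lum with 3.56 and Dcn with 1.69. In re-adherent against adherent cells the macrophage markers had a median of 1.17, beside 0.23 for the 5 handling genes. The markers ranged from -0.31 in Ctss to 4.62 in Cx3cr1. Of the 16, 9 were higher past 2-fold, where 4.84% of all genes were. The part of other cell types in the handling gene values was not tested.

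Other genes of the same pathways were read from lists of known members. Of 16 regulation and uptake genes, 3 fell and 3 rose, shares near the 14.7% and 17.2% of all genes. Tmem97, a sterol-regulated membrane protein, fell by 1.22 ± 0.20. Mylip, a ubiquitin ligase and a known liver X receptor target, rose by 1.81 ± 0.20, Nr1h3, which encodes liver X receptor alpha, rose by 1.60 ± 0.20, and the scavenging receptor Lrp1 rose by 1.04 ± 0.20. Srebf1 had levels of -1.64, -1.27 and -1.72, a difference of 0.37 ± 0.21.

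Of 18 further transport, storage and efflux genes, 10 rose in suspension, where 17.2% of all genes rose, and 2 fell, where 14.7% fell, with a median of 1.22. The largest rises among those measured on all arrays were in Cyp7b1, an oxysterol hydroxylase, by 2.81 ± 0.20, in Lipa, the lysosomal acid lipase that frees cholesterol from its esters, by 2.77 ± 0.20, and in Gramd1b, a carrier of sterols from the plasma membrane, by 2.77 ± 0.20. Gramd1c, of the same family, fell by 1.60 ± 0.20, and Lcat, which esterifies cholesterol in plasma, fell by 1.25 ± 0.30. Of 13 genes of prenylation, dolichol and ubiquinone, 1 fell, Pdss1 of the ubiquinone side chain, by 1.17 ± 0.07, and none rose past 2-fold, both below the 14.7% and 17.2% of all genes, with a median of -0.31. Of 11 fatty acid synthesis genes, 4 fell and none rose past 2-fold, beside the same shares of all genes. Fads2 fell by 2.81 ± 0.24, Me1, which supplies NADPH, by 2.17 ± 0.20, and the desaturase Scd2 by 1.84 ± 0.20, and the fourth was the elongase Elovl6.

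On return to plastic the changes ran the other way, in values that share the non-adherent array with the first comparison and therefore are no separate evidence. Of the 19 synthesis genes, 15 were higher and 4 lower in re-adherent than in non-adherent cells, where 53.7% of all genes were higher. Of the 19, 4 lay within their error. The median was 0.60 beside 0.08 for all genes. The rises past 2-fold were in Mvk by 1.73 ± 0.20, Fdps by 1.32 ± 0.20, Sc5d by 1.28 ± 0.20 and Hsd17b7 by 1.17 ± 0.20, 4 of 19 genes, where 15.6% of all genes rose as far. No synthesis gene fell past 2-fold, where 16.3% of all genes did, and Tm7sf2 came closest with -0.84 ± 0.20. Of the 4 rises, that of Mvk was the only one that passed 2-fold in every setting tried. Fdft1 by its brighter probe differed by 0.98 ± 0.20 and by its dimmer probe by -1.08, Sqle by 0.88 ± 0.20, Cyp51 by 0.69 ± 0.20 and Nsdhl by 0.70 ± 0.20. The entry enzymes Acat2 and Hmgcs1 differed by 0.02 ± 0.21 and -0.08 ± 0.20, within their errors. Of the handling genes, Abca1 fell by 2.49 ± 0.20, Abcg1 by 2.46 ± 0.20, Npc1 by 2.01 ± 0.20 and Soat1 by 1.03 ± 0.20, the last at -0.88 with another background correction. Stard4 differed by 0.53 ± 0.20. The brighter probe of Srebf2 fell by 2.46 ± 0.20 and its other probe differed by 0.71. The remaining members lay between -0.33 ± 0.20 in Dhcr7 and 0.65 ± 0.20 in Lss. The plot of differences shows all 27 genes in the 3 comparisons.

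**Figure D4:**
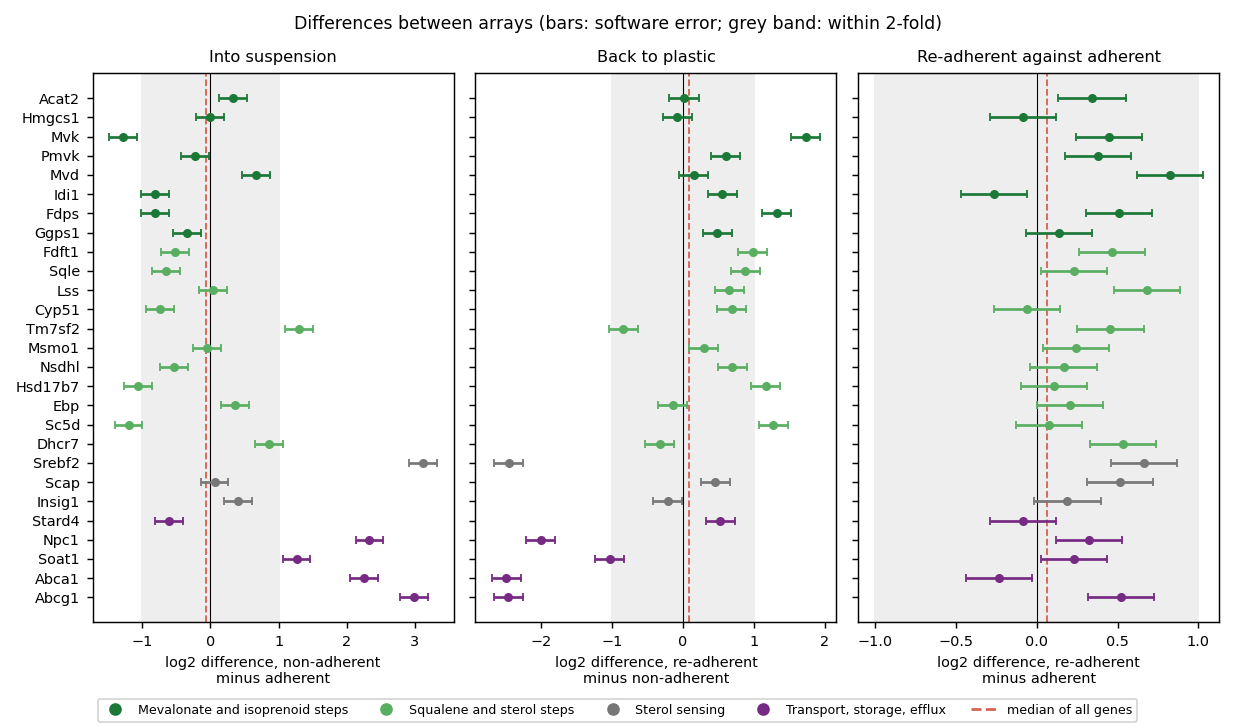
Log2 differences between arrays (x axes) of the 27 genes for non-adherent minus adherent, re-adherent minus non-adherent and re-adherent minus adherent, with the software error as a bar, the range within 2-fold in grey and the median of all genes as a dashed line. Handling genes other than Stard4 leave the grey band to the right and then to the left, synthesis genes mostly stay inside it, and in the third panel every gene lies inside it.

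After return to plastic the members were near their adherent levels. No member differed past 2-fold between re-adherent and adherent cells, where 4.9% of all genes fell and 4.84% rose as far. Of the synthesis genes 16 of 19 were above 0, where 56.1% of all genes were, and 6 of the 19 lay within their error. The synthesis median was 0.25, the handling median 0.23 and the median of all genes 0.06, and both list medians turned negative without scaling and with scaling to spiked-in control RNA, so no direction is given. The largest difference was that of Mvd, 0.82 ± 0.20, followed by Lss with 0.68 ± 0.20 and the brighter probe of Srebf2 with 0.67 ± 0.20. Idi1 at -0.26 ± 0.20 and Abca1 at -0.23 ± 0.20 were the lowest. Abcg1 was 0.52 ± 0.20 above its adherent level, but only 0.05 above it with scaling to spiked-in control RNA, inside its error.

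The plot of settings gives the medians under each way of processing the arrays. In suspension the handling median lay between 2.01 and 2.36 and the synthesis median between -0.59 and -0.23. Relative to the median of all genes, the synthesis median was -0.27 in suspension, and it ranged from -0.34 with quantile normalisation to -0.17 with the mean of probes and -0.13 with dim probes kept. On return it was 0.52 relative to all genes, and 0.33 with dim probes kept. The handling median relative to all genes was 2.33 in suspension and -2.09 on return.

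With a lower threshold of 1.5-fold, 7 of 19 synthesis genes were lower in suspension, where 26.3% of all genes were, and 3 were higher, where 25.4% were. On return 10 of 19 were higher at 1.5-fold, where 27.7% of all genes were, and 1 was lower, where 24.8% were. Between re-adherent and adherent cells 2 were higher at 1.5-fold, Mvd and Lss, where 12% of all genes were, and 0 were lower, where 10.8% were. No synthesis gene passed 4-fold in any comparison, where 5.34% of all genes were lower and 7.61% higher in suspension, 6.05% lower and 5.7% higher on return, and 1.29% lower and 1.36% higher in re-adherent than in adherent cells. Among the handling genes, Npc1, Abca1 and Abcg1 passed 4-fold both into suspension and on return.

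**Figure D5:**
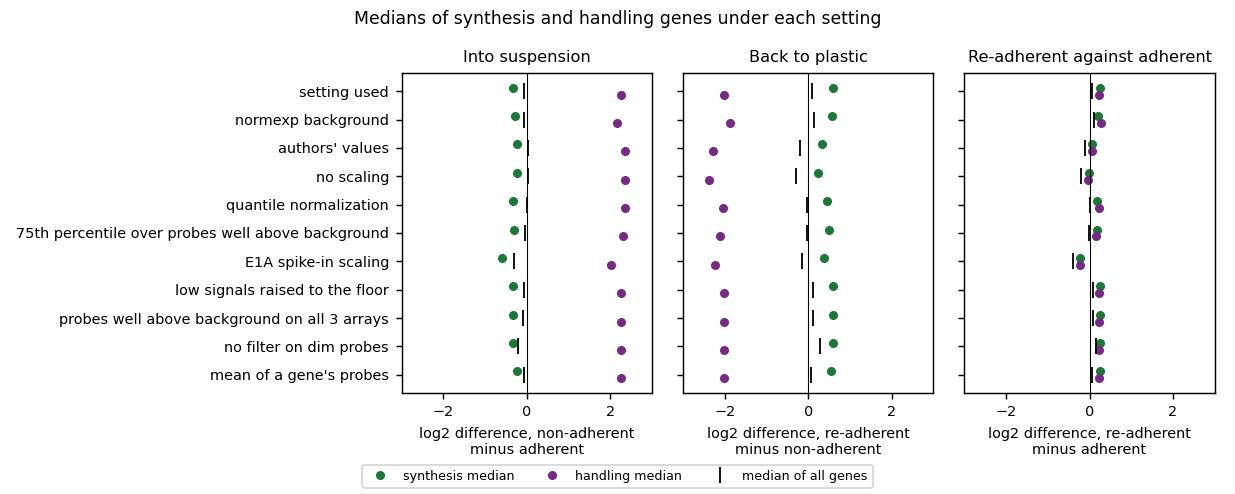
Median log2 difference (x axes) of the 19 synthesis genes, the 5 handling genes and all genes under each processing setting (y axis), in 3 panels for the 3 comparisons. In the first 2 panels the synthesis and handling medians lie on opposite sides of 0 under every setting shown, and in the third they lie near 0 and turn negative without scaling and with spike-in scaling.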

How the data were processed

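The deposited scanner files hold linear spot intensities with background already subtracted, the processed signal of Agilent Feature Extraction 10.10.1.1, and per the file headers each array has 1 colour. The authors' value table holds intensities too, equal to the processed signal times 1.52, 1.52 and 1.62 in the same sequence of states as in the report. Control spots and outlier flags (154, 180 and 175 spots) were left out. Of the 62976 spots, 59305 were not controls. The log2 processed signal was reduced by the 75th percentile of each array (651, 697 and 541), and spots of a probe were averaged. RefSeq accessions named 27235 of 55681 probes. A probe dim on every array was dropped, and the brightest probe stood for a gene. The design predates GRCm38.p6, so no probe positions are given. Analysis used Python 3.11.15, numpy 2.4.6, pandas 2.3.3, R 4.3.3 and limma 3.58.1, and was tested on simulated data.

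With 1 array per group nothing was tested: a difference past 2-fold was counted, beside the share of all genes past it. Its error combines both spots' software errors, and the number of arrays limits the precision. Where several genes of a further list passed 2-fold, up to 3 in each direction were named, well above background on all arrays, and Srebf1 whatever its value. Some genes that this rule names, and the further synthesis list, are not reported here. Members, lists and motif letters were chosen with earlier results of these data known, and other spellings of the motifs had been tried. The alternatives were normexp background correction with offset 50 (on median spot signals), the authors' values, no scaling, quantile, other percentile and spike-in scaling (6 E1A probes), a signal floor, other probe filters, the mean over probes, and 1.5-fold and 4-fold thresholds.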

Additional observations from a re-analysis of the deposited data

How the results depend on the processing

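Of 132 comparisons of a list median or count with an alternative, 107 stayed within the software error of 0.20 for a median or within 1.5 times for a count, 21 moved further and 4 changed sign. That tolerance is wide for re-adherent against adherent cells, where the synthesis median went from 0.25 to 0.070 and the handling median from 0.23 to 0.057 with the authors' values. Every probe of a member was well above background on every array. The signal floor and the other probe filters therefore could not change a member value, and their comparisons are among the 107 by construction. With E1A spike-in scaling, the change into suspension was -0.59 for the synthesis median and 2.01 for the handling median, with 5 synthesis genes down past 2-fold. On return to plastic, the synthesis median was 0.33 with the authors' values, 0.24 without scaling and 0.38 with spike-in scaling, and the handling median -2.28, -2.37 and -2.23, and 1 synthesis gene was past 2-fold lower under each of these. Without scaling 1 synthesis gene was past 2-fold higher on return. Between re-adherent and adherent cells, the synthesis median was -0.020 without scaling and -0.23 with spike-in scaling, and the handling median -0.033 and -0.24. These settings shift all genes together: the median of all genes there went from 0.06 to -0.20 and -0.41. At 1.5-fold, 7 synthesis genes were lower and 3 higher in suspension, 1 lower and 10 higher on return, and 2 higher in re-adherent than adherent cells. At 4-fold each count was 0. Single genes kept their direction in every setting in suspension for 22 of 27, the exceptions being Hmgcs1, Fdft1, Lss, Msmo1 and Scap, on return for 23 of 27, the exceptions being Acat2, Mvd, Fdft1 and Msmo1, and between re-adherent and adherent cells for 12 of 27. Of 9 genes past 2-fold in suspension, 8 were past it in every setting, the exception being Hsd17b7, and on return 4 of 9. With the mean of its probes, Srebf2 was at 1.34 in suspension and -0.87 on return.

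No paired analysis was possible because there was 1 array for each state, and for the same reason no array was left out. The values compare 3 arrays and not 3 conditions. Every member was well above background, but with normexp correction Hsd17b7 was at -0.92 in suspension and Soat1 at -0.88 on return, inside 2-fold, and Dhcr7 at 0.62 in suspension.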
